A study of Mus musculus with 6 samples.

Results

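The subject of this report is a set of 28 mouse genes of sterol synthesis, uptake and efflux, followed in 3T3-L1 cells, mouse preadipocytes that grow as fibroblasts and become fat cells on hormonal induction. The set is a list of gene symbols chosen by pathway role. No measured value enters the choice of genes, although earlier results of these arrays were known when the list was drawn up. For each symbol the annotated probe set with the highest mean was taken, which gave values for 25 of the 28 genes among 19938 genes with a symbol. Acat2, Soat1 and Nr1h2 were not analysed here. Each value is the log2 signal of an Affymetrix whole-transcript array, so a difference of 1 is a 2-fold difference. There were 6 arrays, 1 for each of 6 cultures. AICAR fibroblasts and adenine fibroblasts had been kept for 3 days in medium with 10% calf serum and 0.5 mM of the compound, and control fibroblasts received no compound. AICAR adipocytes and adenine adipocytes had 0.5 mM of the compound during 3 days of induction, followed by 3 days in insulin medium without it, and control adipocytes went through the same steps untreated. Induction medium held 10% fetal bovine serum, 1 µmol/l dexamethasone, 115 µg/ml IBMX and insulin at 1 µg/ml. The state of the cells therefore goes with the serum and with the induction agents, and the 2 states differ in the time between compound and harvest.

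Cholesterol is built from acetyl-CoA through mevalonate, isoprenoid phosphates, squalene and lanosterol. Transcription of nearly the whole chain is controlled by the membrane-bound factor SREBP2 (gene Srebf2). When sterol in the endoplasmic reticulum is low, the escort protein Scap takes SREBP2 to the Golgi for cleavage, and when sterol is high the Insig proteins hold Scap back. Excess sterol acts the other way through the LXR nuclear receptors, which induce the exporters Abca1 and Abcg1 and the ubiquitin ligase Mylip, which targets lipoprotein receptors for degradation. Fat cells store much of the body's free cholesterol. Adenine is a purine base that cells salvage into AMP, and AICAR is a ribonucleoside whose phosphorylated form mimics AMP and activates the AMP-activated protein kinase.

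The promoters of these genes are known for sterol regulatory elements next to CCAAT boxes, the binding sites of NF-Y. Windows from 250 bases before to 50 bases after the annotated start were taken from RefSeq (GRCm38.p6), and 23 of the 28 genes had a window. Fdps, Fdft1, Sqle, Stard4 and Abcg1 had none. Both strands were searched for exact matches to TCACNCCAC, a form of the sterol regulatory element, to its 8-base core CACNCCAC, which the 9-base form contains, and to CCAAT. Hmgcs1 had the 9-base form, which made 1 of 23 genes of the set (4.35%), against 388 of 27025 genes with a window (1.44%) and 1.24% of all windows. The core was found in 3 of the 23 genes (13%), against 7.12% of all genes and 6.24% of all windows. CCAAT was found in 19 of the 23 genes (82.6%) and in 14 of the 15 synthesis genes with a window (93.3%), against 41.1% of all genes and 37.4% of all windows. Of the 4 synthesis or regulator genes with the largest AICAR difference in fibroblasts (Hsd17b7, Cyp51, Msmo1 and Insig1), 0 held the 9-base form, 1 held the core and 4 held CCAAT. Matches are a description of the letters in these windows. The 4 windows below were chosen after the matches were seen: Hmgcs1 for its 9-base element, Insig1 for its core, and Msmo1 and Idi1 for the spacing of their CCAAT boxes and their values below. They read 5′ to 3′ on the gene's strand, and capitals mark the matches. CCAAT on the opposite strand reads ATTGG.

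Hmgcs1: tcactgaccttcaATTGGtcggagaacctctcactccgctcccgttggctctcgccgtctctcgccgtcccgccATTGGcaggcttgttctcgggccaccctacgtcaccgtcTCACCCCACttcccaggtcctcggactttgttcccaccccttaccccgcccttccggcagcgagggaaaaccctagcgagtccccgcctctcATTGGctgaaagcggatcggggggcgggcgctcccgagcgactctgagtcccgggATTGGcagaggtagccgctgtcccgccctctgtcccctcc
Insig1: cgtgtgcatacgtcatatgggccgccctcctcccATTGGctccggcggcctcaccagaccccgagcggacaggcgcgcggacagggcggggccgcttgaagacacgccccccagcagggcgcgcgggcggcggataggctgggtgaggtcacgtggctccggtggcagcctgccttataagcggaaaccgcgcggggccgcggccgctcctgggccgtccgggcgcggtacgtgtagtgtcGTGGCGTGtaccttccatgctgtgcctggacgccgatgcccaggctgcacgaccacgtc
Msmo1: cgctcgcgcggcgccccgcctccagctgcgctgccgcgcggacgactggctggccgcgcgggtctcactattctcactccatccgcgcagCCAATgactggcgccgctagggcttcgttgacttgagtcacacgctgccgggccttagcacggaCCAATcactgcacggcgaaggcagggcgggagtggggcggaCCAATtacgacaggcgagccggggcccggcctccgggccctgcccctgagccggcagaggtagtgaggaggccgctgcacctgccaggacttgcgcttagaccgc
Idi1: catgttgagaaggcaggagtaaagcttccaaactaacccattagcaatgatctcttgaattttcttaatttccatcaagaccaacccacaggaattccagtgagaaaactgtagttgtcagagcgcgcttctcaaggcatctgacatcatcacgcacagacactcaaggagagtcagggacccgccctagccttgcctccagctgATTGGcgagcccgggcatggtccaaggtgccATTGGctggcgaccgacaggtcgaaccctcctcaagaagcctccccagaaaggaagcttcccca

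The Hmgcs1 window lies at chr13:119690101-119690400 on the plus strand, and its 9-base element TCACCCCAC begins 137 bases before the start, between CCAAT boxes that begin 176 and 45 bases before it. The Insig1 window lies at chr5:28071162-28071461 on the plus strand, and its core, GTGGCGTG on the strand shown, begins 9 bases before the start. The Msmo1 window at chr8:64733529-64733828 on the minus strand holds 3 CCAAT boxes, which begin 160, 96 and 55 bases before the start. The Idi1 window at chr13:8885356-8885655 on the plus strand holds 2, which begin 45 and 14 bases before the start.

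Array medians lay between 5.41 and 5.49. The floor for the genes tested was the median of all gene means (5.87), which kept 9969 genes and 24 of the 25 measured members. Abcg1 lay just below it and stood between 5.71 and 5.97 on all 6 arrays. Each condition had 1 array, so differences between conditions have no replicate check and precision is limited by the number of arrays. The fat cell label held for its markers: 8 of 9 adipocyte markers were at least 2-fold higher in control adipocytes than in control fibroblasts, with Adipoq at 10.64 against 4.42, while the hormone gene Lep stayed between 4.25 and 4.65 on all 6 arrays. Of 7 fibroblast markers 6 were lower in control adipocytes than in control fibroblasts (median -0.84) and 3 of them at least 2-fold, with Acta2 at 7.24 against 10.79, while Pdgfra was at 11.51 against 11.07. Of 8 leukocyte, endothelial and epithelial markers, 6 lay below the floor on all 6 arrays, among them Ptprc between 3.86 and 4.32, Cdh5 between 4.71 and 5.07 and Epcam between 4.38 and 4.69. The exceptions were Cd68, between 5.51 and 7.44, and Krt8, between 5.66 and 6.08. Bulk arrays cannot tell fewer cells of a type from less RNA per cell.

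**Figure D1:**
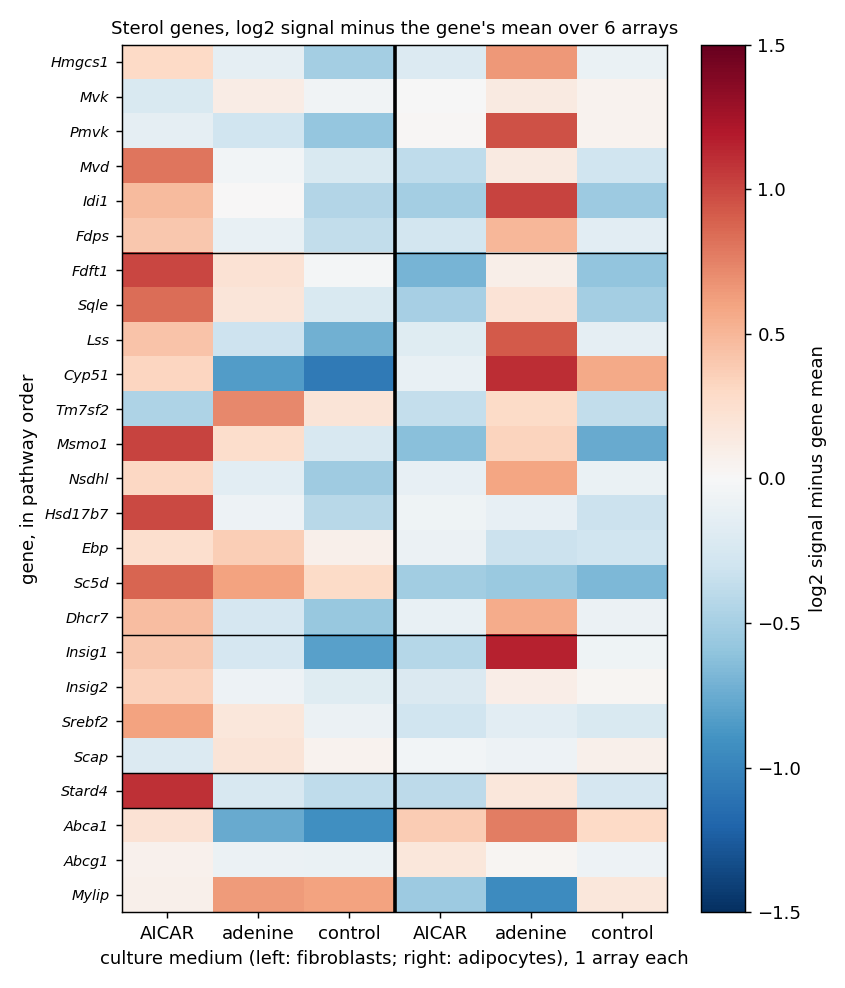
Log2 signal of each measured gene minus its own mean over the 6 arrays (colour scale), with genes in pathway order down the page and the 6 cultures across it, fibroblasts on the left and adipocytes on the right of the heavy line. Among fibroblasts 14 of 17 synthesis genes were highest with AICAR, and among adipocytes 14 of 17 were highest with adenine.

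The first comparison asked what AICAR did to these genes in fibroblasts. Most of the measured synthesis genes stood higher, both before and after squalene, together with the sterol sensor Insig1, the sterol carrier Stard4 and the exporter Abca1. Of the 25 measured genes, 11 were higher by 2-fold or more in AICAR than in control fibroblasts and 0 lower by as much, where 1.7% of all genes tested were that much higher and 3.69% that much lower. At 1.5-fold, 18 of the 25 lay apart, 17 of them higher, beside 19% of all genes tested in either direction. The 17 measured synthesis genes had a median difference of 0.92, with 15 above 0, and all genes tested had a median of -0.03, with 47.5% above 0.

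In the mevalonate part, which makes the isoprenoid units, the median difference with AICAR in fibroblasts was 0.80. Mvd, the decarboxylase that forms isopentenyl diphosphate, had a signal of 8.49 with AICAR, 7.65 with adenine and 7.46 in control fibroblasts, and of 7.31 with AICAR, 7.82 with adenine and 7.38 in control adipocytes. It was thus highest in AICAR fibroblasts, with a difference of 1.03. Idi1, the isomerase of that product, stood at 8.53, 8.06 and 7.61 in AICAR, adenine and control fibroblasts, a difference of 0.92 for AICAR. Its second annotated probe set gave 0.92 as well. Hmgcs1, a synthase early in the pathway, was higher by 0.82 and Fdps, which makes farnesyl diphosphate, by 0.78. Pmvk, the second kinase of the chain, was at 0.44 and Mvk, the first, at -0.18.

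The squalene and sterol part had a median of 1.03 and held 7 of the 11 genes past 2-fold. Hsd17b7, a keto-reductase of the sterol 4-demethylation steps, had a signal of 8.94 in AICAR fibroblasts, 7.86 in adenine fibroblasts and 7.53 in control fibroblasts. Its AICAR difference of 1.41 (2.65-fold) was the highest among the synthesis genes. In adipocytes the same gene varied little, at 7.88 with AICAR, 7.81 with adenine and 7.62 in the control. Cyp51, the lanosterol 14-demethylase, stood at 8.05, 6.89 and 6.67 in AICAR, adenine and control fibroblasts, a difference of 1.38 for AICAR. Msmo1, the methyl oxidase of the same demethylation block, stood at 11.17, 10.42 and 9.92, a difference of 1.25. Lss, the cyclase that forms lanosterol, stood at 8.54, 7.81 and 7.39, a difference of 1.15. In each of these 3 genes the order was AICAR, then adenine, then control.

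Sqle, the squalene epoxidase and a rate-controlling oxygenase, had a signal of 9.38 in AICAR fibroblasts, 8.72 in adenine fibroblasts and 8.31 in control fibroblasts. Its AICAR difference was 1.07. Dhcr7, the last reductase before cholesterol, stood at 9.11, 8.39 and 8.08 in the same order, a difference of 1.03. Fdft1, the squalene synthase, stood at 10.58, 9.80 and 9.56, a difference of 1.02, while its second probe set gave 0.92. Mvd, Dhcr7 and Fdft1 lay just inside the 2-fold line, and Idi1 (0.92) and Nsdhl (0.85), a decarboxylating dehydrogenase, just outside it. Smaller differences were those of Sc5d, the lathosterol desaturase (0.59), and Ebp, the sterol isomerase (0.17). Tm7sf2, a sterol 14-reductase, went the other way, with 5.91 in AICAR fibroblasts, 7.10 in adenine fibroblasts and 6.58 in control fibroblasts, a difference of -0.66. Its AICAR value lay close to the floor of 5.87.

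Among the regulators, Insig1, itself a well-known target of SREBP, had a signal of 10.34 with AICAR, 9.69 with adenine and 9.12 in the control among fibroblasts. The AICAR difference was 1.22 (2.33-fold). Its paralogue Insig2 stood at 8.73, 8.30 and 8.19, a difference of 0.54, and Srebf2 at 8.98, 8.53 and 8.27, a difference of 0.70. Scap was lower, at 8.57 with AICAR, 8.97 with adenine and 8.83 in the control. Stard4, a soluble carrier of cholesterol, had the largest AICAR difference of the whole set in fibroblasts. Its signal was 7.88 with AICAR, 6.56 with adenine and 6.41 in the control, a difference of 1.47 (2.77-fold).

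The LXR targets of the set differed among themselves with AICAR in fibroblasts. Abca1 had a signal of 8.34 with AICAR, 7.37 with adenine and 7.20 in the control, a difference of 1.15. Mylip stood at 8.52, 9.09 and 9.05, a difference of -0.53, and Abcg1 differed by 0.15. The fibroblast cultures also differed in other markers. With AICAR 4 of 7 fibroblast markers were at least 2-fold lower, beside 3.69% of all genes tested. Of 9 adipocyte markers 6 were above 0 (median 0.04). The highest differences were those of the fatty acid carrier Fabp4, at 8.62 against 6.97 in control fibroblasts, and the receptor gene Pparg, at 9.04 against 8.09. The lowest were those of Adipoq, at 4.05 against 4.42, and Cebpa, at 5.66 against 5.84. The macrophage-associated gene Cd68 was at 7.44, against 5.95 in control fibroblasts, while the leukocyte antigen Ptprc was at 4.21, against 4.24, and Adgre1 at 3.78, against 3.58. The part of these shifts in the sterol gene values was not tested.

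**Figure D2:**
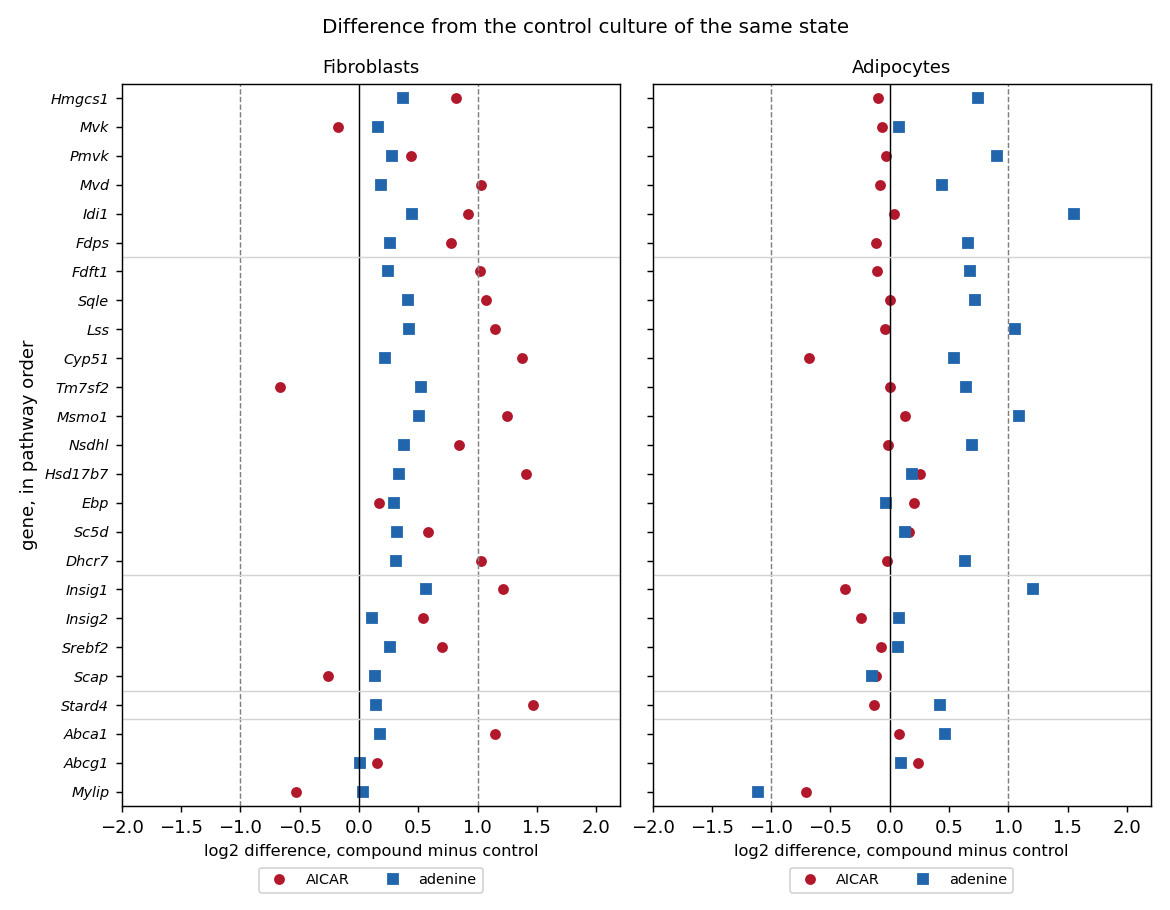
Log2 difference of each measured gene from the control culture of the same state, AICAR as circles and adenine as squares, fibroblasts in the left panel and adipocytes in the right, 1 array per culture and dashed lines at 2-fold. In fibroblasts 11 genes pass 2-fold with AICAR and 0 with adenine, whereas in adipocytes 0 pass with AICAR and 5 with adenine, of which Mylip is the 1 below 0.

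Adenine in fibroblasts went with smaller differences, nearly all of 1 sign. Of the 25 measured genes, 25 were above 0, or 24 with quantile normalization or median centring, where Abcg1 came to 0 or just below. The highest were Insig1 (0.57), Tm7sf2 (0.52) and Msmo1 (0.50). None was 2-fold apart (0 of 25), where 0.0802% of all genes tested were higher by that much and 0.0502% lower, and 0 of 25 were 1.5-fold apart, beside 0.863% of all genes tested. The median was 0.32 over the synthesis genes and -0.01 over all genes tested, of which 47.9% were above 0. The values for the mevalonate part (median 0.27) and for the squalene and sterol part (0.33) lay close together. Tm7sf2 was the synthesis gene with the largest adenine difference and also the one with the lowest AICAR difference. Abca1 was at 0.17, Mylip at 0.03 and Abcg1 at 0.01. Fibroblast markers had a median of 0.14 with adenine and 0 of 7 were 2-fold apart.

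Set directly against adenine fibroblasts at the same dose and time, AICAR fibroblasts had a median of 0.52 over the synthesis genes, with 14 of 17 above 0. Stard4 (1.33), Cyp51 (1.15) and Hsd17b7 (1.07) were at least 2-fold higher and Tm7sf2 (-1.18) was at least 2-fold lower. That is 3 higher and 1 lower of 25, beside 1.59% and 3.89% of all genes tested, and 12 of 25 were 1.5-fold apart, beside 18.9%. In the same comparison fibroblast markers had a median of -0.87, with 3 of 7 at least 2-fold lower, and adipocyte markers one of 0.20, with 1 of 9 at least 2-fold higher. Their part in the sterol gene values was not tested. Insig1 was at 0.65 and Abca1 at 0.97 in this comparison, in which the adenine array takes the place of the control.

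In adipocytes the comparison of AICAR with control gave no such shift. The median over the synthesis genes was -0.03, with 7 of 17 above 0, and became 0.04, with 12 of 17 above 0, when each array was centred on its median. All genes tested had a median of -0.01, with 47.4% above 0. Of 25 measured genes 0 were higher by 2-fold or more and 0 lower by as much, beside 0.612% and 0.381% of all genes tested, and 2 were 1.5-fold apart, beside 3.66%. The 2 were Cyp51, with a signal of 7.61 in AICAR adipocytes and 8.29 in control adipocytes, and Mylip, with 7.91 and 8.62 in the same order. Both were lower with AICAR. Insig1 was at 9.51 in AICAR adipocytes and 9.88 in control adipocytes, a difference of -0.37. The 4 regulators were all below 0, with Insig2 at 8.16 against 8.40, Srebf2 at 8.07 against 8.14 and Scap at 8.74 against 8.85. Stard4 was at 6.40 against 6.54 and Abca1 at 8.50 against 8.42. Fibroblast markers had a mean level of 10.16 in AICAR adipocytes and 10.19 in control adipocytes. Their highest difference was that of Acta2 (9.19 against 7.24) and their lowest that of Pdgfra (10.64 against 11.51). Adipocyte markers had mean levels of 9.38 and 9.56, with Adipoq the highest difference (10.79 against 10.64) and Retn the lowest (9.38 against 10.50). The part of these markers in the sterol gene values was not tested. These arrays were taken 3 days after AICAR had been withdrawn, unlike those of the fibroblasts.

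At the same late time most synthesis genes stood higher in adipocytes induced with adenine than in control adipocytes. Of 17 synthesis genes 16 were above 0, with a median of 0.66, beside a median of 0.02 and 52.5% above 0 over all genes tested. Of the 25 measured genes 4 were higher by 2-fold or more and 1 lower by as much, beside 1.24% and 2.4% of all genes tested, and 13 were 1.5-fold apart, beside 13.7%. The mevalonate part had a median of 0.70. Idi1 had a signal of 9.06 with adenine and 7.54 with AICAR, against 7.51 in control adipocytes. Its adenine difference of 1.55 (2.93-fold) was the largest of the set, and the second probe set gave 1.59. Pmvk was higher by 0.90, Hmgcs1 by 0.75 and Mvd by 0.44.

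In the squalene and sterol part (median 0.65) Msmo1 and Lss passed 2-fold with adenine in adipocytes. Msmo1 stood at 10.49 with adenine and 9.53 with AICAR, against 9.40 in control adipocytes, an adenine difference of 1.09. Lss stood at 9.04 with adenine and 7.93 with AICAR, against 7.98 in the control, an adenine difference of 1.06. In both genes AICAR and control adipocytes lay close together and adenine adipocytes above them. Sqle was at 8.75 with adenine and 8.04 with AICAR, against 8.03 in the control, and Dhcr7 at 9.20 with adenine and 8.54 with AICAR, against 8.56 in the control. Cyp51 was at 8.84 with adenine and 7.61 with AICAR, against 8.29 in the control, so its control lay between the compounds. Fdft1 stood at 9.67 with adenine and 8.89 with AICAR, against 8.99 in the control, an adenine difference of 0.67, whereas its second probe set gave 1.02, past the 2-fold line. Tm7sf2, which AICAR fibroblasts had at a lower level than control fibroblasts, was higher by 0.65. The late enzymes Hsd17b7 (0.19), Sc5d (0.13) and Ebp (-0.03) lay near 0.

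Insig1 had a signal of 11.09 in adenine adipocytes, 9.51 in AICAR adipocytes and 9.88 in control adipocytes, so its adenine value was the highest of all 6 arrays. The difference from the control was 1.21 (2.32-fold). Insig2 did not share it, with 8.48 against 8.40, and Srebf2 (8.21 against 8.14) and Scap (8.70 against 8.85) were also close to the control. Stard4 was at 6.96, against 6.54. Of the LXR genes, Abca1 was at 8.89, against 8.42, and Abcg1 at 5.82, against 5.73. Mylip was the one gene at least 2-fold lower, with 7.51 in adenine adipocytes and 8.62 in control adipocytes, a difference of -1.11 (2.15-fold). The marker lists moved in the same array. With adenine 8 of 9 adipocyte markers were higher (median 1.00, Lep at -0.40 being the exception). All 7 of 7 fibroblast markers were at least 2-fold lower, beside 2.4% of all genes tested. Their median was -1.60 and their mean level 8.56 in adenine adipocytes and 10.19 in control adipocytes. The part of this marker shift in the sterol gene values was not tested.

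In AICAR adipocytes set against adenine adipocytes most synthesis genes stood lower. The median over the synthesis genes was -0.71, and 14 of 17 lay below 0. Of 25 genes 4 were lower by 2-fold or more and 0 higher by as much, beside 1.21% and 2.21% of all genes tested, and 13 were 1.5-fold apart, beside 11.3%. The 4 were Insig1 (-1.59, 3.00-fold), Idi1 (-1.52), Cyp51 (-1.22) and Lss (-1.10). Mylip was higher by 0.40 with AICAR than with adenine. Fibroblast markers had a median of 1.45 here, with 6 of 7 at least 2-fold higher, and adipocyte markers one of -1.01, with 5 of 9 at least 2-fold lower, and their part in the sterol gene values was not tested. This comparison and those against the controls share arrays, so their values are not independent of each other.

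**Figure D3:**
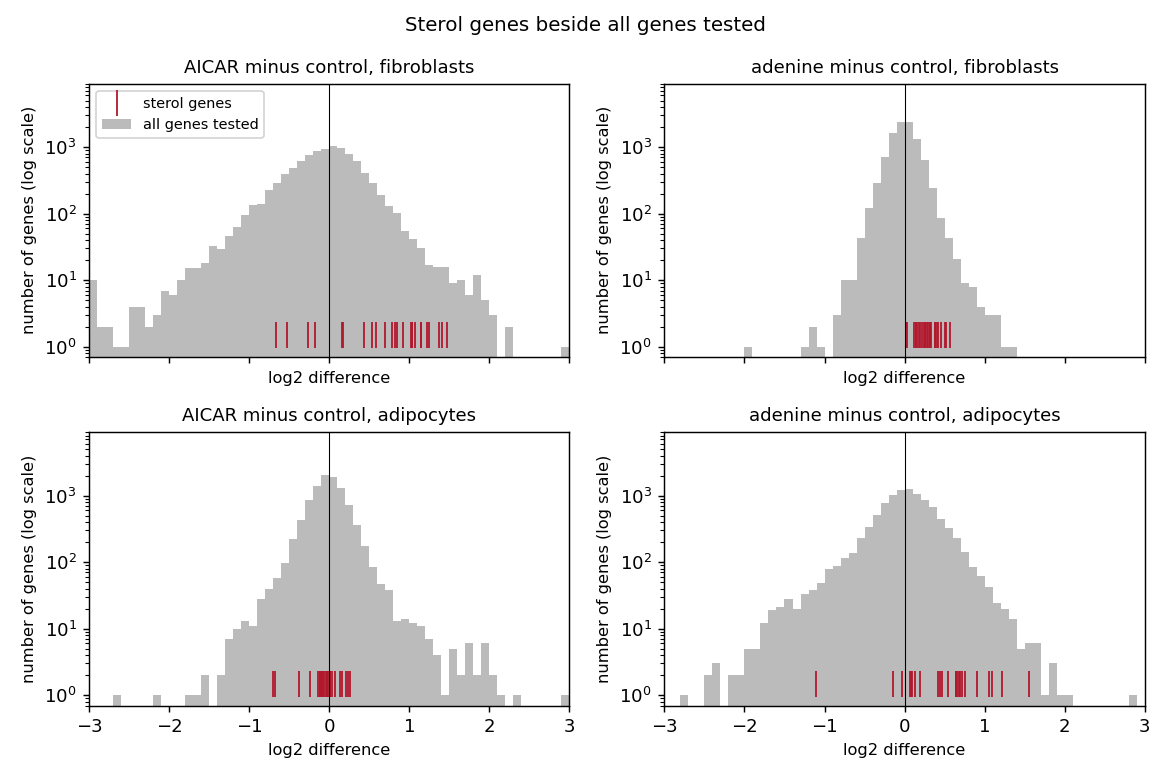
Number of genes tested (grey bars, log scale) by log2 difference from the control of the same state in bins of 0.1, with the 25 measured sterol genes as red ticks whose height carries no value, and differences beyond 3 placed in the end bins. The ticks lie to the right of the centre for AICAR in fibroblasts (synthesis median 0.92) and adenine in adipocytes (0.66), in a narrow band mostly above 0 for adenine in fibroblasts (0.32), and around 0 for AICAR in adipocytes (-0.03, or 0.04 with median centring).

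The last comparison asked how adipocytes differed from fibroblasts given the same compound or none, in media that otherwise differed. Between the untreated cultures the synthesis genes had a median difference of 0.09, with 9 of 17 above 0, beside 0.02 over all genes tested. Cyp51 stood apart at 8.29 in control adipocytes and 6.67 in control fibroblasts, a difference of 1.62, and Abca1 at 8.42 and 7.20, a difference of 1.23. These were the 2 genes of 25 higher by 2-fold or more, with 0 lower by as much, beside 2.88% and 4.27% of all genes tested, and 6 were 1.5-fold apart, beside 18%. Insig1 was at 0.76 and Sc5d, the lowest, at -0.96.

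With adenine in both states the synthesis median was 0.18. Of 25 genes 6 were at least 2-fold higher (Cyp51 at 1.94, Abca1 at 1.52, Insig1 at 1.40, Pmvk at 1.25, Lss at 1.23 and Idi1 at 1.01) and 2 at least 2-fold lower (Mylip at -1.58 and Sc5d at -1.15), beside 6.75% and 8.47% of all genes tested. At 1.5-fold 13 were apart, beside 30.9%. With AICAR in both states the synthesis genes were lower in adipocytes in 14 of 17 cases, with a median of -0.60. Of 25 genes 7 were lower by 2-fold or more and 0 higher by as much, beside 4.6% and 5.93% of all genes tested, and 13 were 1.5-fold apart, beside 27.7%. The lowest were Fdft1 (-1.69), Msmo1 (-1.64), Stard4 (-1.48), Sc5d (-1.38) and Sqle (-1.34). Sc5d kept its direction in all 3 comparisons. It stood at 9.20, 9.16 and 9.04 in AICAR, adenine and control adipocytes, against 10.58, 10.32 and 10.00 in the fibroblasts in the same order. Mylip, Fdft1, Ebp and Srebf2 too were lower in adipocytes in each comparison, and Abca1, Pmvk, Mvk and Abcg1 higher in each. Some of these differences were small.

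**Figure D4:**
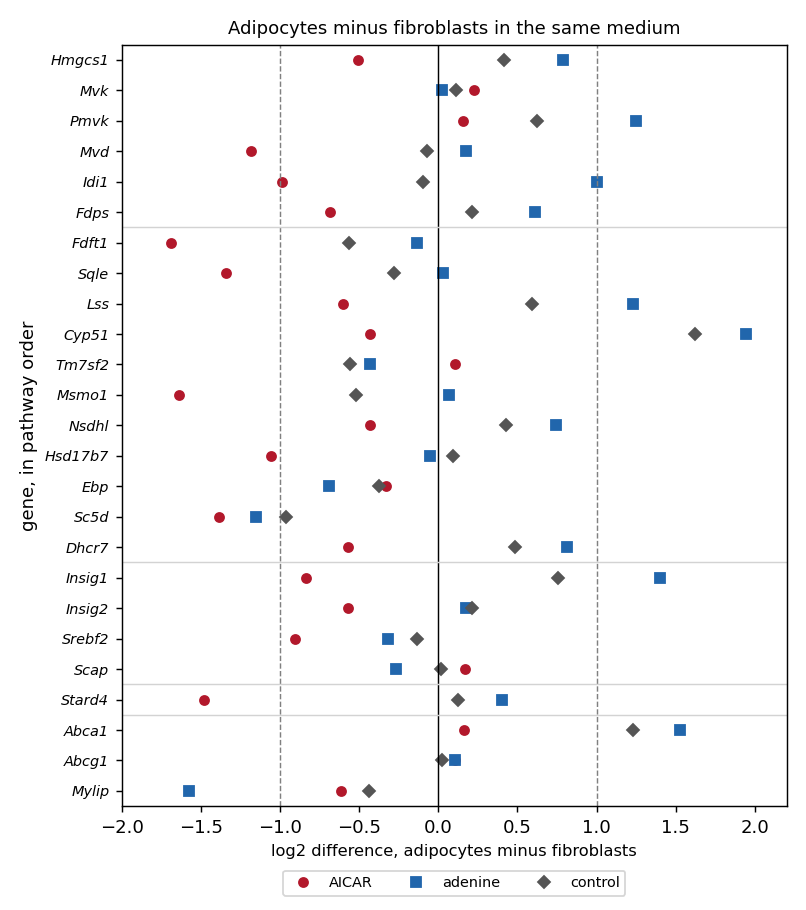
Log2 difference of adipocytes minus fibroblasts for each measured gene, with both cultures given AICAR (circles), adenine (squares) or no compound (diamonds), 1 array per culture and dashed lines at 2-fold. The media of the 2 states otherwise differed. The AICAR circles lie mostly below 0 (synthesis median -0.60) and the control diamonds around 0 (0.09), and Sc5d lies near or below -1 in all 3 comparisons.

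An additive model over all 6 arrays gave the tests that this design allows. Medium in this model stands only for AICAR, adenine or no compound. Its error is the departure of state and medium from additivity, with 2 residual degrees of freedom, so a gene whose response to a compound differs between states adds to its own error. For state, 1 of the 24 members tested passed Benjamini-Hochberg adjustment over all genes in limma. Sc5d fell by 1.17 in adipocytes (SE 0.15, limma adjusted p = 0.0152). No member rose (0 of 24), where 5.22% of all genes tested rose and 5.37% fell. The limma state coefficients of Abca1 (0.97, SE 0.28, adjusted p = 0.0873) and Mylip (-0.88, SE 0.25, adjusted p = 0.0844) did not pass. The number of members passing was 0 without the control pair, 4 without the AICAR pair and 1 without the adenine pair. For AICAR against control over both states limma called 0 of 24 members and 0% of all genes tested in each direction, and for adenine against control likewise 0 of 24 and 0%. At an unadjusted p under 0.05 in limma there were 226 of 9969 genes for AICAR and 1 of 24 members, Hsd17b7 (coefficient 0.83, SE 0.31). For adenine there were 62 of 9969 genes and 1 of 24 members, Tm7sf2 (0.58, SE 0.22). Both gene counts are a smaller share of all genes tested than 0.05. Without the AICAR pair the adenine counts were 159 of 9969 genes and 10 of 24 members. Without the adenine pair the AICAR counts were 366 of 9969 genes and 2 of 24 members. In both fits 0 genes passed adjustment for the compound.

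The lists of other genes of sterol, isoprenoid and fatty acid metabolism had medians between -0.20 and 0.23 with AICAR in fibroblasts, with single genes well to either side. The isoprenoid branch genes, which draw on the same precursors for ubiquinone, dolichol and protein prenylation, had a median of 0.05 over 7 measured genes, with Ggps1, the geranylgeranyl diphosphate synthase, at 0.54 and the prenyltransferase subunit Fnta at -0.99. Of 6 measured genes of SREBP processing and sterol-linked degradation 1 was at least 2-fold lower, beside 3.69% of all genes tested. It was the SREBP protease Mbtps1, with 8.07 in AICAR and 9.13 in control fibroblasts. The 12 measured genes of other sterol transport and oxysterol metabolism had a median of 0.17, and 0 of them were 2-fold apart. The 10 fatty acid targets of SREBP-1 had a median of 0.23, with the desaturase Scd1 at 1.20 and the elongase Elovl6 at -1.71. Of 4 other LXR genes and targets 0 were 2-fold apart, with Srebf1 at 0.30 and the receptor gene Nr1h3 at -0.60.

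With adenine in adipocytes the isoprenoid branch genes had a median of 0.31 and the fatty acid targets one of 0.50, with the fatty acid synthase Fasn at 0.86 and Elovl6 at -0.64. In the sterol transport list 2 of 12 were at least 2-fold higher, beside 1.24% of all genes tested, among them the lipoprotein receptor Scarb1, with 9.64 in adenine adipocytes and 8.36 in AICAR adipocytes, against 8.38 in control adipocytes. Nr1h3 was higher by 0.94 and Lpcat3, an acyltransferase induced by LXR, by 0.32. In the additive model 3 of the 4 measured LXR genes of that list rose in adipocytes in limma, with none falling, while 2 of the 10 fatty acid targets rose and 2 fell, beside 5.22% of all genes tested that rose and 5.37% that fell. Without the control pair limma called 0 genes for state.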

How the data were processed

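Total RNA of 6 cultures was hybridised to arrays, and the deposited table holds log2 expression values of 35556 probe sets. Per the submitters' processing notes, Transcriptome Analysis Console 1.0.0.234 and build mm10 were used. How background, normalization and probe summary were handled is not given in the sources used here. Values were used as deposited, without detection calls.

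In the platform annotation 12146 probe sets had no symbol, 1621 had several and 21789 had 1, and only the last kind was used. The rule for named genes gave all 6 values for members at least 2-fold from a control. Members and lists were chosen by pathway role, with earlier results of these data known. Promoter windows were matched by symbol. The planned comparison of the Insig1 and Insig2 proteins was not made.

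Differences between 2 arrays were not tested. limma 3.58.1 in R 4.3.3 fitted state and medium as additive terms to 9969 genes (prior degrees of freedom 3.64, Benjamini-Hochberg threshold 0.05). Its p-values do not measure the spread between cultures. Alternatives were quantile normalization, median centring, the mean of all probe sets, other filters (none, 75th percentile), a 1.5-fold threshold, and leaving out each medium.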

Additional observations from a re-analysis of the deposited data

Results flagged for a closer look

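Some genes had differences of opposite sign in the 2 states under the same compound, with at least 2-fold in 1 state and at least 2-fold between the states. For AICAR against control, adipocytes minus fibroblasts, this was so for Cyp51 (-2.06), Stard4 (-1.61), Insig1 (-1.59), Lss (-1.19), Fdft1 (-1.12), Mvd (-1.11) and Dhcr7 (-1.06), each below 0 in adipocytes and above 0 in fibroblasts. For Lss, Dhcr7, Mvd, Fdft1 and Stard4 the adipocyte value itself was small, between -0.14 and -0.03. With median centring those of Lss and Dhcr7 turned to 0.02 and 0.04, and the second probe set of Fdft1 gave 0.21. For adenine against control Mylip had a value of -1.14, with -1.11 in adipocytes and 0.03 in fibroblasts. With 1 array per culture the difference between states was not tested, and the time since the compound was withdrawn differs between them. Over all genes tested, 2.46% lay at least 2-fold below 0 in this AICAR measure, and 11 of the 25 measured members did.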

How the results depend on the processing

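Every median of the synthesis genes moved by less than 0.16, the smallest robust SD of all genes in any comparison, under quantile normalization, median centring, the mean of all probe sets and without the member below the filter. The median for AICAR against control in adipocytes (-0.03) turned to 0.04 with median centring. The counts of members 2-fold apart stayed within 1.5 times under the same settings. At 1.5-fold in place of 2-fold, the members apart numbered 18 for AICAR and 0 for adenine in fibroblasts, and 2 for AICAR and 13 for adenine in adipocytes. They numbered 12 and 13 for AICAR against adenine in fibroblasts and adipocytes. For adipocytes against fibroblasts they numbered 13 with AICAR, 13 with adenine and 6 without compound. Of 16 member values past 2-fold against a control, 0 changed sign. In AICAR fibroblasts Mvd, Fdft1 and Dhcr7 came to the 2-fold line or just below it with median centring (0.99, 0.98 and 1.00), and Fdft1 also with the mean of its probe sets (0.97). In adenine adipocytes Lss and Msmo1 came to the 2-fold line with quantile normalization (1.00 for each). The number of members passing limma for state ranged from 0 to 4 when 1 medium was left out, and in limma without the control pair 0 genes passed and 2095 were under an unadjusted p of 0.05. The cause was not tested. For the compounds 0 members passed under each alternative that could be fitted. Abcg1, and Tm7sf2 in AICAR fibroblasts (5.91), lie close to the dim end, where signal over background limits what a difference can show.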

Other observations

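Tm7sf2 and Dhcr7 both act late in sterol synthesis but differed in AICAR fibroblasts, at -0.66 and 1.03, while both were higher in adenine adipocytes, at 0.65 and 0.64. Nceh1, which releases cholesterol from its esters, was lower in adipocytes in all 3 comparisons with fibroblasts. It was at 5.92 in AICAR adipocytes against 7.94 in AICAR fibroblasts, and at 5.23 in adenine adipocytes against 7.76 in adenine fibroblasts. In control adipocytes it was at 5.43, against 7.55 in control fibroblasts. Its values in adenine and control adipocytes lay below the floor of 5.87 and that in AICAR adipocytes close to it, which limits the size of these differences. Gramd1b, which carries sterol from the plasma membrane to the endoplasmic reticulum, stood at 9.61 in adenine adipocytes, against 8.58 in control adipocytes, and at 7.67 in AICAR fibroblasts, against 8.23 in control fibroblasts.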
